A study of Mus musculus with 8 samples.

Results

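The genes examined were 8 amino acid transporters that activated lymphocytes use at the cell surface, Slc3a2, Slc7a5, Slc7a6, Slc7a1, Slc1a5, Slc1a4, Slc38a1 and Slc38a2. They were chosen by gene symbol, and all 8 had a row among the 24259 symbols of the deposited count table. RNA had been sequenced from B cells of C57BL/6 lymph nodes at day 3 after NP-OVA immunization, sorted as NP+IgDlowB220+ cells, which bind the hapten NP and are developing toward germinal centers (pre-GC B cells). The recipients were CD45.1 Sap-/- mice, which lack SAP, an adaptor protein through which T cells give lasting help to B cells, and help came from transferred OT-II T cells specific for ovalbumin. HET helpers were of the genotype CD4-CrexBcl6fl/+, with 1 floxed allele of Bcl6, whereas WT helpers were CD4-Cre OT-II T cells. The Cre recombinase was present in both groups and is driven by the Cd4 promoter, so the allele was deleted in the helper T cells and the sequenced B cells carried no deletion of Bcl6. Each group has 4 libraries of about 200 cells, which the study's methods trace to 1 pool of recipients per group. Every p-value below therefore measures only how sorts and library preparations vary, and a difference between groups cannot be told apart from one between pools. The comparison addresses how B cells differ when their helpers have a single intact copy of Bcl6.

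A lymphocyte that leaves rest and begins to grow imports amino acids both as building blocks and as a signal, since leucine and arginine inside the cell activate the growth kinase complex mTORC1. Much of the traffic is exchange: glutamine is taken up by sodium-coupled carriers and then traded outward for leucine and other large neutral amino acids. The glycoprotein encoded by Slc3a2 (4F2hc, or CD98 heavy chain) does not carry amino acids itself, but binds light subunits such as those encoded by Slc7a5 and Slc7a6 and brings them to the membrane. Transcription of several of these genes is known to respond to MYC and, when amino acids are short, to ATF4.

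All 8 genes are protein-coding, and their positions were taken from GENCODE M21 on GRCm38. Slc38a1 (chromosome 15, 96571418 to 96642913) and Slc38a2 (chromosome 15, 96687392 to 96699730) are neighbours on the minus strand. Slc7a6 (8, 106168857 to 106198706) and Slc7a5 (8, 121881150 to 121907694) also share a chromosome. The others lie apart, Slc3a2 at 8706882 to 8723369 on chromosome 19, Slc7a1 at 148327410 to 148399904 on chromosome 5, Slc1a5 at 16781340 to 16798274 on chromosome 7 and Slc1a4 at 20302180 to 20332713 on chromosome 11. Slc7a5 sits within a longer gene model on the opposite strand, Gm20388, and the strand setting of the counting was not given in the sources used here. How reads that fall in both models were handled was not given either. Counts of Slc7a5 could therefore include reads of an opposite transcript, or lack reads set aside as shared, and its levels below carry this limit. Of the other 7 genes, none overlapped another gene model.

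Promoter sequences from RefSeq (GRCm38.p6), each a window of 250 bases before to 50 bases after a transcription start, were matched for 5 of the 8 genes, Slc3a2, Slc7a6, Slc7a1, Slc1a4 and Slc38a2 (7 windows). No window was matched for Slc7a5, Slc1a5 or Slc38a1. The stretches just before the start are shown for Slc3a2, the heavy subunit gene, for Slc7a1, whose RNA separated the groups, and for Slc1a4, the least abundant gene. Capitals mark the core of the amino acid response element to which ATF4 binds (TGATGNAA, searched on both strands).

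Slc3a2 (chr19:8713898-8713997, minus strand, 100 bases before the start): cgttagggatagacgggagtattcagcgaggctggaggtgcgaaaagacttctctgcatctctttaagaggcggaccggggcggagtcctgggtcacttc
Slc7a1 (chr5:148399905-148400004, minus strand, 100 bases before the start): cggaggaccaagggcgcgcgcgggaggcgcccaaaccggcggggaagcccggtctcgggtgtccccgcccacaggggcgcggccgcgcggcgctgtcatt
Slc1a4 (chr11:20332710-20332813, minus strand, 100 bases before the start and 4 after it): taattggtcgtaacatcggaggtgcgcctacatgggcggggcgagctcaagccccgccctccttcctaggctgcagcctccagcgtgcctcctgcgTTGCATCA

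The response element core was found in the window of Slc1a4 alone among these 5 genes, in reverse orientation across the start (TTGCATCA, which reads TGATGCAA on the other strand). Of all 32851 promoter windows, 3.97% held this core. The E-box CACGTG, a sequence bound by MYC with MAX, was in none of the 7 windows of these 5 genes and in 7.15% of all windows. The window of Slc3a2 begins at a RefSeq start 9472 bases inside the gene as GENCODE draws it. For each of the 5 genes, the window nearest the gene start in GENCODE was the one described. It held more CpG dinucleotides than the median window, which has 7, in all 5 genes. The counts were 15 in Slc3a2, 21 in Slc1a4, 27 in Slc7a1 and 41 in both Slc7a6 and Slc38a2. These matches describe the letters of the windows and were not tested against expression.

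Before the transporters were compared, the cells were checked against marker genes. All 11 B cell markers, among them Cd79a and Ms4a1, were abundant in every library, with at least 1323 counts each. Their summed level was 31389 to 34692 CPM in HET and 37406 to 41119.9 CPM in WT (CPM, counts scaled to 1000000 per library after TMM normalization). Taken singly, 7 of the 11 lay lower in HET without overlap, against 2.62% of all genes tested, and none passed an adjusted p of 0.05 in edgeR (9 were lower at an unadjusted p under 0.05, against 3.88% of all genes). Cd74 was the most abundant, at 10785 to 11680 CPM in HET and 12618 to 15157 CPM in WT. RNA of genes listed as markers of other cells was also present, and whether the B cells made part of it themselves was not tested. The 18 T cell markers together reached 582 to 947 CPM in HET and 488 to 811 CPM in WT, led by Cd2 and Lck. Cd3e stood at 8.12 to 25.9 CPM in HET and 6.56 to 22.5 CPM in WT. Cd8b1 reached up to 123 CPM and Cd4 no more than 0.758 CPM. Of the 17 T cell markers tested, 15 were fitted higher and 2 lower in HET. Their median log2 fold change was 0.48 against -0.0014 over all genes tested, and none had an unadjusted p under 0.05 in edgeR. The 17 myeloid markers with a row summed to 180 to 429 CPM in HET and 134 to 501 CPM in WT, led by Ly6c2 (58.4 to 339 CPM) or, in WT replicate 2, by Lyz2. Fcgr1 and Cd163 were at 0 in all HET libraries and C1qa in all WT libraries. These genes reached no more than 1.37 CPM in the other group. The 14 markers of antibody-secreting cells summed to 3492 CPM in HET replicate 1, where Jchain reached 1576 CPM, and to 1009 to 1621 CPM in the other 7 libraries. Of the 13 tested, 11 were fitted higher and 2 lower in HET. Their median log2 fold change was 0.24, and none had an unadjusted p under 0.05 in edgeR. The 20 cell cycle genes ran from 1344 to 1988 CPM in HET and from 812 to 1351 CPM in WT. In RNA from a sorted population, fewer cells of a kind and less RNA per cell cannot be told apart. Library totals ran from 6652386 to 12559189 counts.

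The 8 genes spanned mean levels from 129.7 down to 0.187 TPM, and none differed between the groups past the threshold. In TPM (counts divided by 1 length per gene and rescaled to the same total in every library), which allows levels of different genes to be set side by side, the order over all 8 libraries was Slc1a5, Slc3a2, Slc38a2, Slc38a1, Slc7a6, Slc7a5, Slc7a1 and Slc1a4. Slc1a5 (ASCT2, a sodium-dependent exchanger for glutamine and small neutral amino acids) led with 129.7 ± 14.3 TPM (SD, n = 8) and ranked 727th by mean TPM among 24232 genes. Slc3a2 followed with 83.6 ± 18.9 TPM (SD, n = 8). The sodium-coupled carriers of glutamine and alanine came next, Slc38a2 (SNAT2) with 39.1 ± 3.81 TPM and Slc38a1 (SNAT1) with 18.4 ± 1.71 TPM (SD, n = 8). Of the summed TPM of the 8 genes, Slc1a5 accounted for 45.9%, Slc3a2 for 29.6%, Slc38a2 for 13.8% and Slc38a1 for 6.52%.

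The light subunit genes and the arginine carrier stood lower. Slc7a6 (y+LAT2, which exchanges cationic for neutral amino acids) was present at 7.25 ± 0.878 TPM (SD, n = 8). Slc7a5 (LAT1, the leucine exchanger of activated lymphocytes) reached 2.32 ± 0.833 TPM and ranked 9747th of 24232 genes. This level would be too low if reads shared with Gm20388 were left uncounted. Slc7a1 (CAT1, a carrier of arginine and lysine) stood at 1.98 ± 0.637 TPM (SD, n = 8). Slc1a4 (ASCT1, a close relative of Slc1a5 that carries alanine, serine, cysteine and threonine) was lowest at 0.187 ± 0.135 TPM (SD, n = 8) and was listed at 0 in WT replicate 4, where no count allows up to 0.310 CPM. An interval or floor of this kind covers counting error only.

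**Figure D1:**
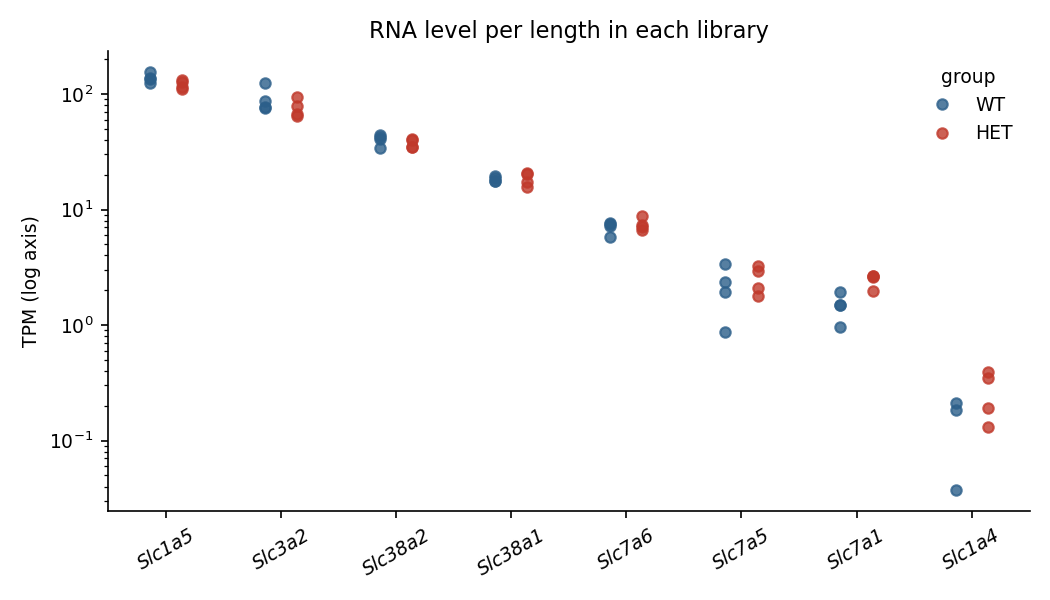
RNA level of the 8 transporter genes in TPM on a log axis, with 1 point per library, WT in blue and HET in red, and genes ordered by their mean. Slc1a5 lies between 111 and 156 TPM and Slc7a5 between 0.878 and 3.37 TPM; the point of Slc1a4 at 0 TPM (WT replicate 4) is not drawn.

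In this order, 6 of the 7 neighbouring pairs differed beyond their spread between libraries. The difference of log2(TPM + 0.1) had the same direction in all 8 libraries for each of these 6 pairs, with an adjusted two-sided exact paired permutation p of 0.00911 (unadjusted 0.00781, the smallest that 256 arrangements allow). Slc1a5 exceeded Slc3a2 by 0.65 ± 0.29 on this log2 scale (SD, n = 8), and Slc7a6 exceeded Slc7a5 by 1.69 ± 0.61. Slc7a5 and Slc7a1 were not separated, with Slc7a5 higher in 5 of 8 libraries (mean difference 0.20 ± 0.53, adjusted exact permutation p = 0.352). The pairs were set by the order observed in these same libraries, so the p-values are no independent support for it. Steps to and from Slc7a5 also carry the limit of its overlap with Gm20388. Several steps depended on gene length. In the authors' TPM, Slc38a2 was taken to be 0.247 times as long as Slc38a1, against 0.513 times for the exons of GENCODE M21, and with the latter lengths the step between them shrank from 1.08 to 0.0281 (adjusted exact permutation p = 0.672). The step from Slc38a1 to Slc7a6 shrank from 1.34 to 0.38 and that from Slc7a6 to Slc7a5 grew from 1.69 to 2.32, both with an adjusted exact permutation p of 0.0109.

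Heavy and light subunits were next set side by side, since Slc3a2 and its partners work as linked pairs. In HET replicates 1 to 4, Slc3a2 stood at 64.9, 66.8, 79.3 and 94.8 TPM, and Slc7a5 at 2.93, 2.08, 1.80 and 3.23 TPM. In WT replicates 1 to 4, Slc3a2 stood at 77.7, 123.8, 86.3 and 75.4 TPM, and Slc7a5 at 2.34, 3.37, 0.878 and 1.94 TPM. In these TPM, Slc3a2 exceeded Slc7a5 in each library, by 22.1-fold in HET replicate 1 at the least and by 98.3-fold in WT replicate 3 at the most, while counts per kb of GENCODE exons gave 11.3-fold and 50.03-fold in the same libraries. As counted, Slc7a6 was the most abundant light subunit gene. The others with a row, beside Slc7a5, were Slc7a7 (y+LAT1) at a mean of 1.26 TPM and Slc7a8 (LAT2) at 0.0144 TPM. Summed over these 4 genes, light subunit RNA came to 10.9 ± 1.30 TPM (SD, n = 8), and Slc3a2 had 6.09 to 10.2 times as much on that scale. With GENCODE exon lengths the excess was 1.99 to 3.54 times, so its size depends on the lengths used. On both scales Slc3a2 stood above the summed light subunits in all 8 libraries. Neither scale would restore reads of Slc7a5 left uncounted because they are shared with Gm20388. The excess over Slc7a5 and over the summed light subunits, and the place of Slc7a5 below Slc7a6, carry that limit.

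**Figure D2:**
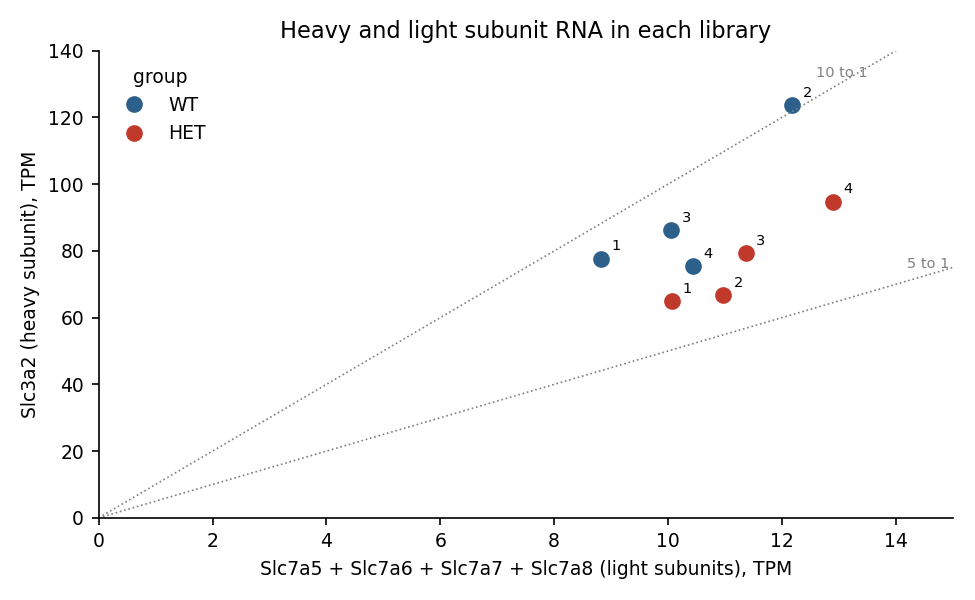
TPM of Slc3a2, the heavy subunit gene, against the summed TPM of Slc7a5, Slc7a6, Slc7a7 and Slc7a8, with 1 point per library, its replicate number beside it, WT in blue and HET in red. The part of Slc7a5 in the sum carries the limit of its overlap with Gm20388. Dotted lines mark ratios of 5 to 1 and 10 to 1; WT replicate 2 has the most Slc3a2 RNA, 124 TPM, and the 8 libraries lie between 6.09 and 10.2 to 1 with the authors' gene lengths (1.99 to 3.54 to 1 with GENCODE exon lengths, not drawn).

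Ratios between transporters within a library, taken as differences of log2(TPM + 0.1), were compared between groups for 5 pairs. The log2 ratio of Slc7a6 to Slc3a2 averaged -3.33 ± 0.10 for HET and -3.65 ± 0.29 for WT (SD, n = 4 each). This difference of 0.32 was the closest of the 5 to the spread, with a two-sided exact permutation p of 0.0857 (adjusted p = 0.286). Slc7a5 to Slc3a2 differed by 0.56 (exact permutation p = 0.229) and Slc7a5 to Slc1a5 by 0.51 (exact permutation p = 0.343), both higher in HET on average. Without WT replicate 3, where Slc7a5 was lowest, these fell to 0.23 and 0.16. Slc38a1 to Slc38a2 differed by 0.10 (exact permutation p = 0.571). Slc1a5 to Slc1a4 had a difference of -1.09 (exact permutation p = 0.114), but Slc1a4 is listed at 0 in WT replicate 4, where the ratio is set by the pseudocount. That difference was -0.73 without this library and -0.38 with a pseudocount of 1. Adjusted over the 5, the exact permutation p ran from 0.286 to 0.571, and 0.0286 is the smallest p that 70 arrangements of the libraries allow.

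Of the 8 genes, 0 passed an adjusted p of 0.05 between HET and WT in edgeR's quasi-likelihood test, which was fitted to all 12744 genes that passed a filter on low counts (0.0235% of which passed, all lower in HET). The adjusted p of the 8 ran from 0.554 to 0.958. At an unadjusted p under 0.05 in edgeR, 1 of the 8 was higher in HET, against 3.34% of all genes tested, and none was lower, against 3.88% (7.22% in either direction). The groups did not overlap for 1 of the 8, which was higher in HET, against 1.99% of all genes higher, 2.62% lower and 4.61% in either direction. DESeq2 also called none of them after adjustment. In the fit, 5 had a higher and 3 a lower level in HET, and the median log2 fold change of the 8 was 0.10 against 0.00 over all genes tested (-0.0014). All 8 entered the test, although Slc1a4 did so with all 4 HET and 2 of the WT libraries above the limit of the filter, where a minimum of 4 was required.

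**Figure D3:**
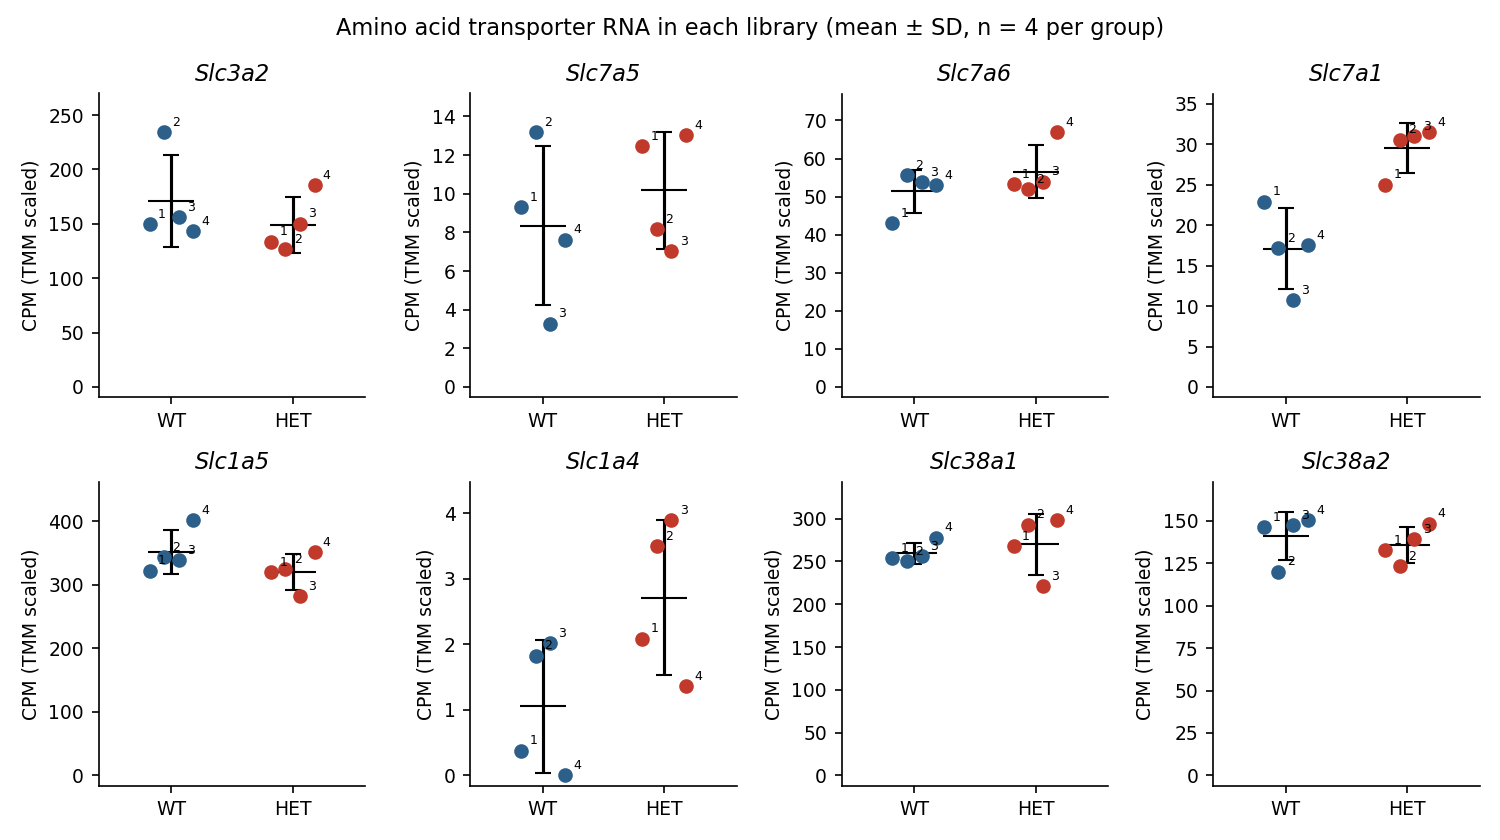
CPM after TMM scaling of each transporter gene in the 4 WT (blue) and 4 HET (red) libraries, with the replicate number beside each point and bars for the mean ± SD (n = 4 per group). The groups overlap for 7 genes; for Slc7a1 the HET libraries (25.001 to 31.5 CPM) all lie above the WT libraries (10.7 to 22.9 CPM).

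Slc7a1 was the gene with the clearest separation. In HET replicates 1 to 4 it stood at 25.001, 30.6, 31.0 and 31.5 CPM, and in WT replicates 1 to 4 at 22.9, 17.2, 10.7 and 17.5 CPM. All HET libraries lay above all WT libraries. The means were 29.5 ± 3.05 CPM in HET and 17.1 ± 4.98 CPM in WT (SD, n = 4 each), which in the fit is a log2 fold change of 0.79 (SE 0.26, 95% interval 0.23 to 1.34), or 1.72-fold (1.17 to 2.53). The unadjusted p in edgeR was 0.00893, and after adjustment over all genes it was 0.554. Slc7a1 thus did not pass the test, and its edgeR adjusted p stayed at or above 0.406 when any 1 library was left out.

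Of the 20 cell cycle genes, 19 were fitted higher in HET, with a median log2 fold change of 0.58 against 0.00 over all genes tested. None passed an adjusted p of 0.05 in edgeR, and 7 were higher at an unadjusted p under 0.05 (against 3.34% of all genes). Ccnb2 had the lowest p (log2 fold change 1.53, edgeR adjusted p = 0.087), followed by Rrm2 and Cdc20. It was the 1 gene higher without overlap (against 1.99%). The sums overlapped between the groups through HET replicate 1 and WT replicate 1 alone. HET replicate 1 had the lowest summed cell cycle level of the HET libraries, 1344 CPM, and also the lowest Slc7a1. WT replicate 1 had the highest cell cycle level of the WT libraries, 1351 CPM, and the highest Slc7a1. The lowest libraries differed, with Slc7a1 lowest in WT replicate 3 and the cell cycle genes lowest in WT replicate 4. The part of cell division in the values of Slc7a1 was not tested.

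The subunit genes overlapped between the groups. Slc3a2 stood at 134, 127, 150.1 and 185 CPM in HET replicates 1 to 4 and at 149.7, 235, 156 and 144 CPM in WT replicates 1 to 4. The fit gave a log2 fold change of -0.20 (SE 0.17, 95% interval -0.56 to 0.16, edgeR adjusted p = 0.851). This difference rested on WT replicate 2, without which the log2 fold change was -0.0084. WT replicate 2 also had the highest summed level of myeloid markers, 501 CPM where the remaining WT libraries had 134 to 248 CPM, with Lyz2 (lysozyme) at 399 CPM. HET replicate 1, next in myeloid markers at 429 CPM, had Slc3a2 at 134 CPM. The make-up of that sum differed, since Lyz2 reached no more than 13.4 CPM in any HET library. The part of myeloid RNA in the Slc3a2 values was not tested.

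Slc7a5 was measured with far fewer counts, 26 to 155 per library. It stood at 12.5, 8.16, 7.04 and 13.0 CPM in HET replicates 1 to 4 and at 9.31, 13.2, 3.28 and 7.62 CPM in WT replicates 1 to 4. The HET range lay inside the WT range. Its log2 fold change was 0.28 with a 95% interval of -0.64 to 1.21 (edgeR adjusted p = 0.931), and 0.03 without WT replicate 3, the lowest library. As a ratio of HET to WT the interval runs from 0.642 to 2.31, and a change within these limits is not excluded by these libraries. The coefficient of variation between WT libraries was 49.2%, where counting error alone would give 11.1%.

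Slc7a6, measured with 360 to 663 counts, was steadier. It stood at 53.3, 51.9, 53.9 and 67.0 CPM in HET replicates 1 to 4 and at 43.0, 55.7, 53.9 and 53.0 CPM in WT replicates 1 to 4. Apart from HET replicate 4 at the top and WT replicate 1 at the bottom, the libraries of both groups lay within 51.9 to 55.7 CPM. The log2 fold change was 0.14 with a 95% interval of -0.21 to 0.49 (edgeR adjusted p = 0.901).

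The pair of ASC transporters, which carry small neutral amino acids, differed in how well they could be measured. Slc1a5 stood at 319, 324, 283 and 352 CPM in HET replicates 1 to 4 and at 322, 343, 339 and 402 CPM in WT replicates 1 to 4. Its mean was a little lower in HET, 319.7 ± 28.5 against 351 ± 34.7 CPM (SD, n = 4 each), within the spread of the libraries. The log2 fold change of -0.14 had a 95% interval of -0.35 to 0.08 (edgeR adjusted p = 0.822). Slc1a4 had 26, 27, 26 and 9 counts in HET replicates 1 to 4 and 4, 18, 16 and 0 counts in WT replicates 1 to 4. Its fitted log2 fold change was 1.36 with a 95% interval of -0.71 to 3.42, the widest of the 8 in edgeR (adjusted p = 0.814), and HET replicate 4 lay below WT replicates 2 and 3. The value ran from 0.19 in limma-trend on log2(TPM + 1) to 2.35 in limma-voom with sample quality weights.

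Among the sodium-coupled carriers the groups were closest. Slc38a1 stood at 268, 293, 221 and 298 CPM in HET replicates 1 to 4 and at 254, 251, 256 and 278 CPM in WT replicates 1 to 4. The WT libraries fell inside the range of the HET libraries, and the log2 fold change was 0.06 with a 95% interval of -0.17 to 0.29 (edgeR adjusted p = 0.947). Slc38a2 stood at 133, 123, 139 and 148 CPM in HET replicates 1 to 4 and at 146, 120.0, 147 and 150.2 CPM in WT replicates 1 to 4. Its log2 fold change was -0.05 with a 95% interval of -0.30 to 0.19 (edgeR adjusted p = 0.958). As ratios of HET to WT, the intervals of these neighbours on chromosome 15 run from 0.887 to 1.22 in Slc38a1 and from 0.812 to 1.14 in Slc38a2. Changes within these limits are not excluded.

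**Figure D4:**
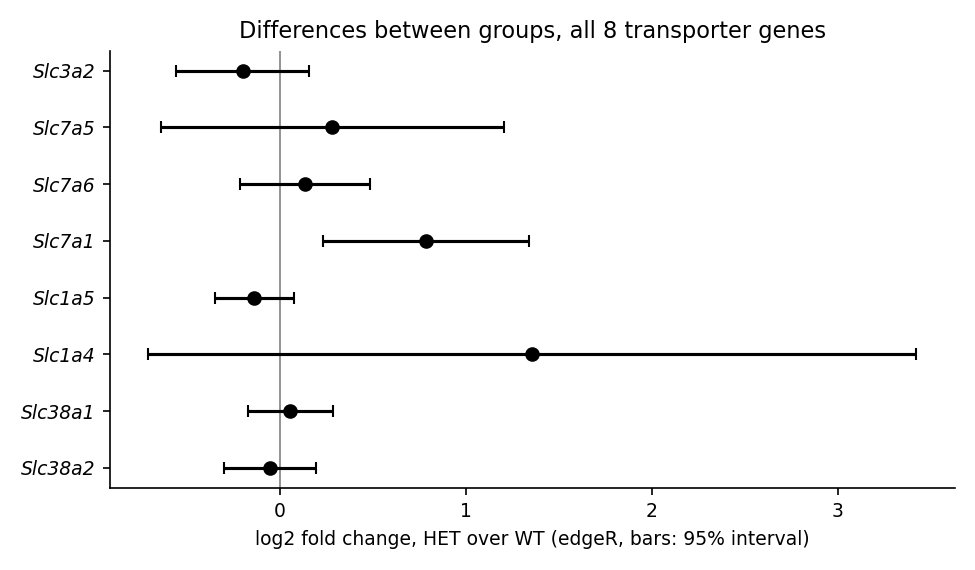
Log2 fold change of each transporter gene, HET over WT, from edgeR (points) with its 95% interval (bars), and a grey line at 0. The intervals of 7 genes include 0; that of Slc7a1 runs from 0.23 to 1.34, and that of Slc1a4, the gene with the fewest counts, from -0.71 to 3.42.

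Added over the 8 genes, transporter RNA averaged 973 ± 88.0 CPM for HET and 1001 ± 50.8 CPM for WT (SD, n = 4 each). On the TPM scale the sums were 267 ± 26.2 in HET and 298 ± 21.5 in WT. The libraries of the groups overlapped on both scales, from 889 to 1097 CPM in HET and from 948 to 1052 CPM in WT.

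Over the 8 libraries the genes did not follow each other closely. Of 28 pairs, 18 had a Pearson r of log2 CPM above 0, and the median r was 0.10. The highest r was that of Slc1a5 with Slc38a1 (0.61, and 0.83 after the group means were removed), and the lowest that of Slc1a5 with Slc1a4 (-0.75). Slc3a2 went with Slc7a6 at r = 0.43 and with Slc7a5 at r = 0.34. After the group means were removed these were 0.68 and 0.51, and the median of the 28 pairs was 0.05. Among 9811 genes with a mean of at least 50 counts, those most like Slc3a2 were Slc25a38 (a mitochondrial glycine carrier, r = 0.93), 0610010F05Rik (0.92) and Eprs (glutamyl-prolyl-tRNA synthetase, 0.92). For Slc7a5 they were Faap20 (a protein of the Fanconi anemia DNA repair pathway, r = 0.95), Pkp3 (plakophilin 3, 0.94) and Golph3l (a Golgi protein, 0.93). These values describe 8 libraries that share 2 cell pools, and they are the highest of 9811 genes compared over only 8 points.

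The list of other amino acid transporters held 43 genes, of which 30 had a row and 17 passed the filter. None of the 17 passed an adjusted p of 0.05 or an unadjusted p of 0.05 in edgeR, and their median log2 fold change was 0.04. The groups did not overlap for 1 of the 17, which was higher in HET, against 1.99% of all genes. Several of the most abundant serve the lysosome. Slc15a4, a carrier of histidine and peptides, stood highest at a mean of 22.3 TPM, followed by Slc38a9, the arginine sensor of mTORC1, at 8.90 TPM, and Slc6a6, the taurine transporter of the cell surface, at 7.52 TPM. Pqlc2, which exports cationic amino acids from the lysosome, stood at 7.13 TPM and Ctns, the cystine exporter, at 5.47 TPM. The leucine carriers that work without Slc3a2, Slc43a2 (LAT4) and Slc43a1 (LAT3), stood at means of 4.08 and 1.18 TPM, beside 2.32 TPM for Slc7a5, a difference that was not tested. The level of Slc7a5 carries the limit of its overlap with Gm20388. The lowest p of the list was that of Slc36a1, a lysosomal proton-coupled carrier, with 5.91 ± 3.03 CPM in HET and 2.71 ± 0.907 CPM in WT (SD, n = 4 each, edgeR adjusted p = 0.706). Slc38a6 and Slc43a2 followed, at log2 fold changes of 1.40 and -0.39 (edgeR adjusted p = 0.773 and 0.801).

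Genes that sense amino acids for mTORC1 were read in the same way. All 34 had a row, and of the 32 tested, 16 were fitted higher and 16 lower in HET, none past an adjusted p of 0.05 in edgeR and 2, both higher, at an unadjusted p under 0.05, against 3.34% of all genes. The groups did not overlap for 1 gene higher in HET, Castor1, and 1 lower, Depdc5, against 1.99% and 2.62% of all genes. Castor1, the cytosolic arginine sensor that restrains mTORC1, had the lowest p, with 8.61 ± 1.71 CPM in HET and 3.46 ± 1.001 CPM in WT (SD, n = 4 each). Its fitted change was a log2 fold change of 1.31 (SE 0.42, edgeR adjusted p = 0.535). Tsc2, an inhibitor of the pathway, followed at 42.7 ± 5.54 CPM in HET and 31.3 ± 5.17 CPM in WT (edgeR adjusted p = 0.657), and Lamtor1, part of the complex that holds mTORC1 signalling at the lysosome, at 119 ± 24.2 and 92.5 ± 20.005 CPM (edgeR adjusted p = 0.706).

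Among 19 tested genes of the ATF4 amino acid response, 1 passed the threshold, which 0.0235% of all genes did. This was Ppp1r15a (GADD34, which brings a phosphatase to the translation factor eIF2), lower in HET with a log2 fold change of -1.07 (edgeR adjusted p = 0.0411), a gene that also belongs to the early response to stimulation. The call held in 6 of 18 alternative fits and was lost whenever a library was left out (edgeR adjusted p = 0.0558 to 0.199), with the direction kept in all 18 (log2 fold change -1.19 to -0.95). The median log2 fold change of the list was 0.22, and 11 of the 19 were fitted higher. At an unadjusted p under 0.05 in edgeR, 1 gene was higher and 1 lower, against 3.34% and 3.88% of all genes. The groups did not overlap for 2 genes, both lower in HET, against 2.62% of all genes. All 20 cytosolic tRNA synthetases, which load amino acids onto tRNA, were tested, and 15 were fitted higher in HET with a median of 0.12 and none past an adjusted p of 0.05 in edgeR. Hars, the histidyl enzyme, had the lowest p, with 85.9 ± 7.82 CPM in HET and 70.1 ± 2.72 CPM in WT (SD, n = 4 each, edgeR adjusted p = 0.654). It was the 1 gene of the list higher at an unadjusted p under 0.05 in edgeR, against 3.34% of all genes. It was also the 1 gene higher without overlap, against 1.99%. Sars and Mars1 both had a log2 fold change of 0.28 (edgeR adjusted p = 0.738 and 0.740).

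Of 14 genes tested as regulators of these transporters, 0 passed an adjusted p of 0.05 or an unadjusted p of 0.05 in edgeR. Myc, whose product drives transporter genes in activated lymphocytes, was present at 241 ± 32.0 CPM in HET and 191 ± 53.7 CPM in WT (SD, n = 4 each, log2 fold change 0.33, edgeR adjusted p = 0.740). Nedd4, a ubiquitin ligase of membrane proteins, had the lowest p of the list, with 46.5 ± 9.003 CPM in HET and 29.7 ± 14.97 CPM in WT (edgeR adjusted p = 0.706). Rnf5, another ubiquitin ligase, had a log2 fold change of 0.27 (edgeR adjusted p = 0.773).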

How the data were processed

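RNA was measured in 8 libraries, 4 HET and 4 WT, named by sample title. The authors aligned SMART-Seq2 reads with Hisat2 (2.2.1) to GRCm38 and counted them with HTSeq-count; annotation release and handling of multiple alignments were not given in the sources used here. The deposited counts are whole numbers per gene symbol, and the deposited TPM table sums to 1000000 per library. All columns were matched by name.

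Counts were tested in R 4.3.3 with edgeR 4.0.16 (filterByExpr, TMM, robust quasi-likelihood F-test, Benjamini-Hochberg adjustment, threshold 0.05), after the code was tested on simulated data. The study used DESeq2, which was run as an alternative (1.42.0), as was limma (3.58.1). Standard errors are the log2 fold change over the square root of F. Levels and ratios were compared as log2(TPM + 0.1) by exact permutation. Named genes were all 8 transporters, genes past the threshold in each list or else those with the 3 lowest p, the 3 genes most like Slc3a2 and Slc7a5, and the most abundant markers. Slc7a7, Slc7a8, Depdc5, and further transporters and markers, were named after their values were seen. The genes and lists were chosen with earlier results of these data known. A B cell marker of the planned list is not reported here.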

Additional observations from a re-analysis of the deposited data

Results flagged for a closer look

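Of 20 groups of 4 values examined, 5 had 1 library set far from the rest, judged by its gap to the nearest value as a share of the whole range, and chance alone gives about 1 in 20. Slc3a2 stood at 235 CPM in WT replicate 2, with the rest of WT at 144 to 156 CPM, and Slc38a2 was lowest in that library, at 120.0 CPM where the rest had 146 to 150.2 CPM. Slc7a6 stood at 67.0 CPM in HET replicate 4 with the rest of HET at 51.9 to 53.9 CPM. Slc7a1 stood at 25.001 CPM in HET replicate 1, below the 30.6 to 31.5 CPM of the rest, and HET replicate 1 is also the library with the most RNA of antibody-secreting cell markers; their part in the value was not tested. The log2 ratio of Slc7a5 to Slc3a2 was -6.47 in WT replicate 3 and -5.21 to -4.99 in the remaining WT libraries, with 26 counts of Slc7a5 behind it.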

How the results depend on the processing

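None of the 8 transporter genes passed an adjusted p of 0.05 under any of the alternatives run, and 139 of their 142 alternative values kept their direction. The 3 that did not were those of Slc38a1 on the TPM scale, with log2 fold changes of -0.0012 (pseudocount 1), -0.0017 (pseudocount 0.1) and -0.0012 (mean TPM of at least 1) in limma-trend. Slc1a4 gave no value with a mean of at least 50 counts or a mean TPM of at least 1. Leaving out 1 library at a time gave log2 fold changes of 0.63 to 0.96 for Slc7a1, -0.32 to -0.0084 for Slc3a2 and 0.03 to 0.59 for Slc7a5. In the level order, Slc38a2 over Slc38a1 fell to 0.0281 with GENCODE exon lengths. With these lengths, a scale added for the subunits after seeing the data, the mean ratio of Slc3a2 to Slc7a5 moved from 41.8 to 21.3 and that to the summed light subunits from 7.70 to 2.61.

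The number of genes called among all tested, 3 in edgeR, was 95 in DESeq2, 38 without a filter, 7 with a mean of at least 50 counts, 6 in limma-voom with sample quality weights and 1 in limma-trend on log2(TPM + 0.1). It was 0 in limma-trend on log2(TPM + 1) (982 at an unadjusted p under 0.05), 0 when that fit kept only genes averaging 1 TPM or more (958), and 1 to 6 when a library was left out. With the replicate number as a block, edgeR called 0 genes (912 at an unadjusted p under 0.05), and Slc7a1 had a log2 fold change of 0.83. The labels do not tie the numbers to shared animals, same-numbered libraries correlated at -0.076 to 0.058 after removal of group means, and 1 of the 4 HET libraries correlated best with the WT library of its own number. For ratios, the paired test over 4 numbers cannot go below an exact permutation p of 0.125. Counts were lowest for Slc1a4 and Slc7a5, with 0 to 27 and 26 to 155 per library, although both varied between WT libraries by more than counting error gives (96.1% against 32.4%, and 49.2% against 11.1%).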
